A study of Mus musculus with 6 samples.

Results

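Fatty acid oxidation genes and peroxisome genes were followed in sciatic nerves of newborn mice bred to delete Hdac1 and Hdac2 in Schwann cells. Schwann cells are the glia that make peripheral myelin. The set was defined by gene name, but with earlier results of these data known. There were 36 listed genes of mitochondrial and peroxisomal oxidation and its regulation, and 14 genes whose symbol starts with Pex and a digit. Of these 50 genes, 49 had a probe set that names 1 gene, and 48 of the 14550 genes tested were members. Cpt1b was measured by a probe set of several genes only and was left out. Acox2, an acyl-CoA oxidase, stayed under the limit for testing, which asked for 3 or more arrays with a log2 value of 4 or higher: its values were 3.96, 3.67 and 4.10 in control and 3.70, 3.86 and 4.16 in mutant nerves. The nearest member inside the limit was Acaa1b, at or above 4 on all 3 mutant and 2 of 3 control arrays, and the other 47 members were above it on all 6 arrays.

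The mutants (dKO) carried DhhCre and a deletion of both deacetylase genes, and the controls were their littermates without DhhCre. All were pups of mixed strain at postnatal day 2, and the perineurium was removed from each nerve. DhhCre is a recombinase driven by desert hedgehog, a gene of the Schwann cell lineage, and in which cells of these nerves the genes were deleted was not measured here. Biotin-labelled RNA of 3 dKO and 3 control samples was hybridised to Affymetrix Mouse Genome 430 2.0 arrays, 1 array per sample. The labels do not say how many nerves or pups went into a sample. The p-values therefore cover only the spread among these 6 samples, which may be technical. Whole nerve RNA was measured, so fewer cells of a type and less RNA per cell cannot be told apart.

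Cells break down fatty acids by beta-oxidation, which shortens the acyl chain in repeated rounds of oxidation, hydration, oxidation and thiolysis. Mitochondria take most long-chain fatty acids, brought in by the carnitine shuttle, and feed the electrons into the respiratory chain. Peroxisomes shorten very long and branched chains, break down the peroxide that forms, and start the synthesis of ether lipids such as plasmalogens, which are abundant in myelin. Peroxins build the organelle and import its enzymes, and inherited peroxin defects damage myelin and nerves.

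On these arrays Hdac1 was lower in dKO nerves by a log2 of 1.55 (log2 change -1.55, standard error (SE) 0.13, limma adjusted p = 0.000271). The change of Hdac2 was -1.26 (SE 0.15, adjusted p = 0.00103). Which exons were deleted is not stated in the labels. Arrays correlated at r = 0.981 to 0.988 within control, 0.98 to 0.991 within dKO and 0.925 to 0.963 between the groups, over the genes tested. The median over tested genes was 7.45 to 7.52 on 5 arrays and 7.64 in dKO 3, so small rises carried by dKO 3 alone are close to that shift. Xist, expressed from the inactive X chromosome, was high on control 2, dKO 2 and dKO 3, and the groups therefore differed in the number of female samples. The part of sex in the changes below was not tested. Among the Schwann cell genes S100b and Erbb3 were lower in dKO, while Ngfr was higher. Sox10 (-0.36, adjusted p = 0.371) and Cdh19 (-0.55, adjusted p = 0.0569) did not pass. The summed linear level of the 5 measured Schwann genes, of which Erbb3 was the brightest, was 7843 to 9815 in control and 5287 to 6395 in dKO nerves. The sum of 5 fibroblast genes was 26119 to 28655 in control and 31892 to 33303 in dKO. Among them Dcn, Lum and Pdgfra rose by 0.86, 0.76 and 0.78, whereas Col1a1 (0.12) and Col3a1 (0.11), the brightest, did not pass. The part of these shifts in the changes described here was not tested.

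Within this gene set 15 of 48 members (31.2%) differed at an adjusted p under 0.05, where 22% of all genes tested did. Of these, 8 were higher in dKO nerves (12.6% of all genes were) and 7 were lower (9.38% of all genes were). The higher ones were Acaa1b, Ppargc1a, Pex11a, Acadl, Cpt1a, Eci2, Pex5 and Etfdh. The lower ones were Ppara, Pex7, Pex11g, Acadvl, Gnpat, Pex19 and Pex2. Changes were at least 2-fold for 7 of the 15 called members, and for 1508 of the 3198 called genes among all tested. Set against all genes tested, a call with at least 2-fold change was seen for 7 of 48 members and for 10.4% of all genes. The median change of the members was 0.05, against 0.01 over all genes, and 26 changes were above 0 and 22 below. The dKO values lay wholly on one side of the control values for 21 members (43.8%), against 40.9% of all genes. They lay above for 10 members (22.6% of all genes) and below for 11 (18.4% of all genes). Of the 15 calls, 11 held under all 12 other settings tried, and those of Etfdh, Pex5, Pex2 and Pex19 did not.

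**Figure D1:**
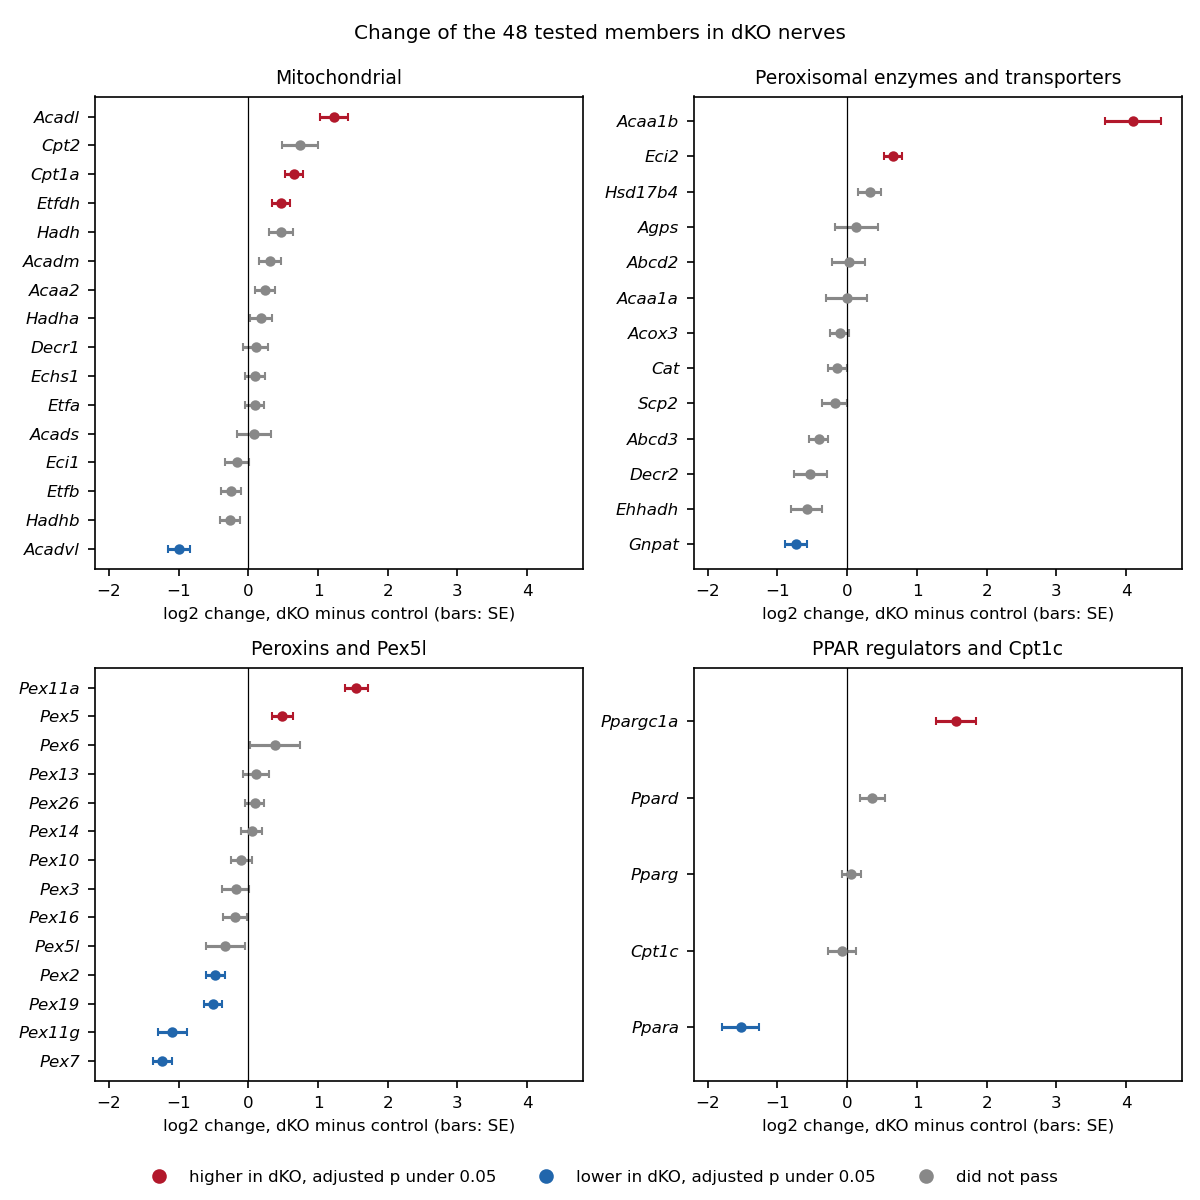
Log2 change in dKO against control for the 48 tested members, grouped by role, with bars of 1 SE and 3 arrays per group. Red (higher) and blue (lower) points passed the test at an adjusted p under 0.05 and grey ones did not; Acaa1b lies alone at 4.10, and the other called members lie between -1.53 and 1.56.

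The promoters of a pair of thiolases and of the other members that rose most are shown here because the thiolase pair differed so widely in its change. Each runs from 250 bases before to 50 bases after the start of the gene in RefSeq, mouse build GRCm38.p6. Capitals mark the GC box with the letters GGGCGG, the promoter element called the CCAAT box, and the half-site of the cyclic AMP response element, or CRE, with the letters TGACG, each read on either strand. Near the end of the Acaa1b window, CCAAT boxes of both strands overlap in a single run of capitals. Acaa1b lies at chr9:119157044-119157343 on the minus strand, Acaa1a at chr9:119341044-119341343 on the plus strand, Ppargc1a at chr5:51567676-51567975 and Pex11a at chr7:79743082-79743381, both on the minus strand.
Acaa1b: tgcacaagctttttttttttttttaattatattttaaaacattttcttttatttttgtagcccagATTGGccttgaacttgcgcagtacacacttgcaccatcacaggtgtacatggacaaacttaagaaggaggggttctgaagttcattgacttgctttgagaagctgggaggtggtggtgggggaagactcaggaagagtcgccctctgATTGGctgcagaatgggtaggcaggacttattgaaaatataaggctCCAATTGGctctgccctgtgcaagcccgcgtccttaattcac
Acaa1a: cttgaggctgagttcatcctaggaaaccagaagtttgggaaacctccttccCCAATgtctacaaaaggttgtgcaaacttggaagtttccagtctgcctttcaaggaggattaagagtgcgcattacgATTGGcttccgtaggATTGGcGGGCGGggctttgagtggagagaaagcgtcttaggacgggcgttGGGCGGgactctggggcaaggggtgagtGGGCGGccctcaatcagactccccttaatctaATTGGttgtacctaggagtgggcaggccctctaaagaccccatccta
Ppargc1a: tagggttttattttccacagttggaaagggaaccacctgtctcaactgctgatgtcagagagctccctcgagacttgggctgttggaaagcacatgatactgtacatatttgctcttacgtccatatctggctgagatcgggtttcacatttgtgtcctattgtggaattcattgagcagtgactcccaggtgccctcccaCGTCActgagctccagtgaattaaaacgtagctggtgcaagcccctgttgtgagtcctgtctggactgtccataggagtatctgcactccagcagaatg
Pex11a: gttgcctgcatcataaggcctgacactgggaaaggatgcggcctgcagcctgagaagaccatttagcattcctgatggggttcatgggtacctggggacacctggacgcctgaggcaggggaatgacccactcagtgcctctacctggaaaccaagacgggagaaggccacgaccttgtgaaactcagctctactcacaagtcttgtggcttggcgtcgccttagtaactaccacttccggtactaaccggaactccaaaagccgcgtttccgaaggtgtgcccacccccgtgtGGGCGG

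Acaa1b and Acaa1a lie on chromosome 9 with 4 protein-coding genes between them. Their windows hold 4 CCAAT boxes each, but the Acaa1a window has 3 GC boxes and 10 CG dinucleotides, and the Acaa1b window has 0 GC boxes and 4 CG dinucleotides. GC content is 43.7% for Acaa1b and 53.3% for Acaa1a. The Pex11a window holds 13 CG dinucleotides and 1 GC box, and that of Ppargc1a holds 5 and 1 half-site of the cyclic AMP response element. These are matches of letters, and no measurement of factor binding was made.

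Acaa1b had the largest change of the 48 members. It encodes a peroxisomal thiolase, which cuts acetyl-CoA off the shortened chain in the last step of each round. Its log2 values were 4.34, 3.99 and 4.57 in control nerves and 8.17, 7.64 and 9.37 in dKO nerves. All dKO samples were far above all control samples, and dKO 3 was the highest. The change was 4.10 (SE 0.40, adjusted p = 0.000418), or 17.1-fold, and 17-fold when the control value under 4 was set to 4. It was 3.61 without dKO 3. Acaa1a, the closely related thiolase, was at 10, 9.98 and 9.34 in control and at 9.56, 9.38 and 10.35 in dKO nerves. Those groups overlapped (log2 change -0.01, SE 0.29, adjusted p = 0.984). A pair of probe sets that the annotation gives to both thiolases had changes of -0.27 (adjusted p = 0.419) and 0.11 (adjusted p = 0.859), so of the 3 probe sets that name Acaa1b, 1 showed the rise, the one named for Acaa1b alone.

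The remaining genes of the peroxisomal oxidation steps had no call. Acox3, an acyl-CoA oxidase, had a change of -0.11 (SE 0.13). Ehhadh, a bifunctional enzyme for straight chains, was at 5.0, 5.66 and 4.91 in control and 4.57, 4.47 and 4.78 in dKO nerves. Its groups did not overlap, but it missed the threshold (-0.58, SE 0.22, adjusted p = 0.0953), except with arrays centred, where adjusted p was 0.0463. Without control 2, its highest array, the Ehhadh change was -0.35 (adjusted p = 0.235). Its D-specific counterpart Hsd17b4 had a change of 0.32 (SE 0.17), and Scp2, whose product includes a thiolase for branched chains, of -0.18 (SE 0.18). Of the 4 Scp2 probe sets, 1 was lower by 0.75 and passed the test over all probe sets.

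Eci2, an isomerase that prepares unsaturated chains and is found in peroxisomes and mitochondria, rose. It was at 10.13, 10.32 and 10.28 in control and at 10.83, 10.91 and 10.98 in dKO nerves, with no overlap. The change was 0.66 (SE 0.13, adjusted p = 0.00959), or 1.58-fold. Decr2, a peroxisomal reductase for unsaturated chains, had a change of -0.53 (SE 0.24, adjusted p = 0.164) with overlapping groups, and of -0.26 without dKO 1. Catalase (Cat), which breaks down peroxide, had a change of -0.14 (SE 0.13).

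The first enzyme of ether lipid synthesis, Gnpat, fell. Its values were 10.45, 10.27 and 10.31 in control and 9.74, 9.74 and 9.37 in dKO nerves. The groups were apart, and the change was -0.73 (SE 0.16, adjusted p = 0.0125), or 1.65-fold lower. Agps, which works on its product, was at 8.82, 8.83 and 9.30 in control and at 9.74, 9.16 and 8.45 in dKO nerves. Its dKO values ran on both sides of the control ones, with a change of 0.13 (SE 0.31). The transporters of the peroxisomal membrane did not pass: Abcd3, which carries long and branched acyl-CoA, had a change of -0.41 (SE 0.14, adjusted p = 0.0658) with no overlap, and Abcd2 of 0.02 (SE 0.24). Abcd3 passed with an intensity trend in the variance model (adjusted p = 0.0234) and with arrays centred (adjusted p = 0.0483), and adjusted p reached 0.182 in the other settings.

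In the carnitine shuttle Cpt1a rose. It encodes the outer membrane enzyme that couples long acyl chains to carnitine and controls their entry into mitochondria. It was at 9.57, 9.75 and 9.65 in control and at 10.30, 10.39 and 10.26 in dKO nerves, with no overlap. The change was 0.66 (SE 0.13, adjusted p = 0.00901), or 1.58-fold, and all 3 probe sets passed the test. Cpt2, the inner membrane partner, was at 7.65, 7.93 and 7.67 in control and at 8.02, 8.38 and 9.08 in dKO nerves. Its groups did not overlap, but dKO 3 stood apart and the change of 0.74 (SE 0.26, adjusted p = 0.0761) missed the threshold. It passed without dKO 1 (0.98, adjusted p = 0.0324) and with its probe sets averaged (0.62, adjusted p = 0.044). With any other array left out it did not pass (adjusted p 0.109 to 0.175), and without dKO 3 the change was 0.45. Cpt1c, the isoform of the endoplasmic reticulum, had a change of -0.08 (SE 0.20).

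The acyl-CoA dehydrogenases, which take the first electrons from the chain, split by gene. Acadl, the long-chain enzyme, was at 8.37, 8.72 and 8.72 in control and at 9.69, 9.63 and 10.20 in dKO nerves. It rose by 1.23 (SE 0.20, adjusted p = 0.00324), or 2.35-fold, with no overlap, and by 0.67 when its other probe set, which is under the limit, was averaged in. Acadvl, the very long chain enzyme of the inner membrane, was at 10.12, 10.12 and 10.19 in control and at 8.95, 9.10 and 9.40 in dKO nerves. It fell by 0.99 (log2 change -0.99, SE 0.16, adjusted p = 0.00304), or 1.99-fold, and every dKO sample was below every control sample. The medium-chain enzyme Acadm had a change of 0.31 (SE 0.16) and the short-chain enzyme Acads of 0.08 (SE 0.24), neither past the test.

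None of the 5 genes of the later mitochondrial steps passed. Hadh, the short-chain dehydrogenase, had the largest change among them (0.47, SE 0.17, adjusted p = 0.0918), with no overlap between groups, and passed with its probe sets averaged (adjusted p = 0.0351) and with an intensity trend (adjusted p = 0.0407). The trifunctional protein subunits Hadha and Hadhb had changes of 0.18 (SE 0.16) and -0.26 (SE 0.14), the hydratase Echs1 of 0.10 (SE 0.14) and the thiolase Acaa2 of 0.24 (SE 0.15). Hadha and Hadhb lie head to head on chromosome 5 and their promoter windows share 228 bases. The isomerase Eci1 (-0.16, SE 0.17) and the reductase Decr1 (0.11, SE 0.18), which handle double bonds, did not pass either.

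Electrons leave the dehydrogenases through the electron transfer flavoprotein. Its subunit genes had changes of 0.09 (Etfa, SE 0.14) and -0.25 (Etfb, SE 0.14). Etfdh, which passes the electrons to ubiquinone, was at 10.06, 9.91 and 9.98 in control and at 10.37, 10.57 and 10.41 in dKO nerves. Its groups did not overlap and it rose by 0.47 (SE 0.13, adjusted p = 0.0405). That call is near the threshold: it was lost with any of the 6 arrays left out (adjusted p 0.0502 to 0.132), and with its probe sets averaged the change was 0.21.

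**Figure D2:**
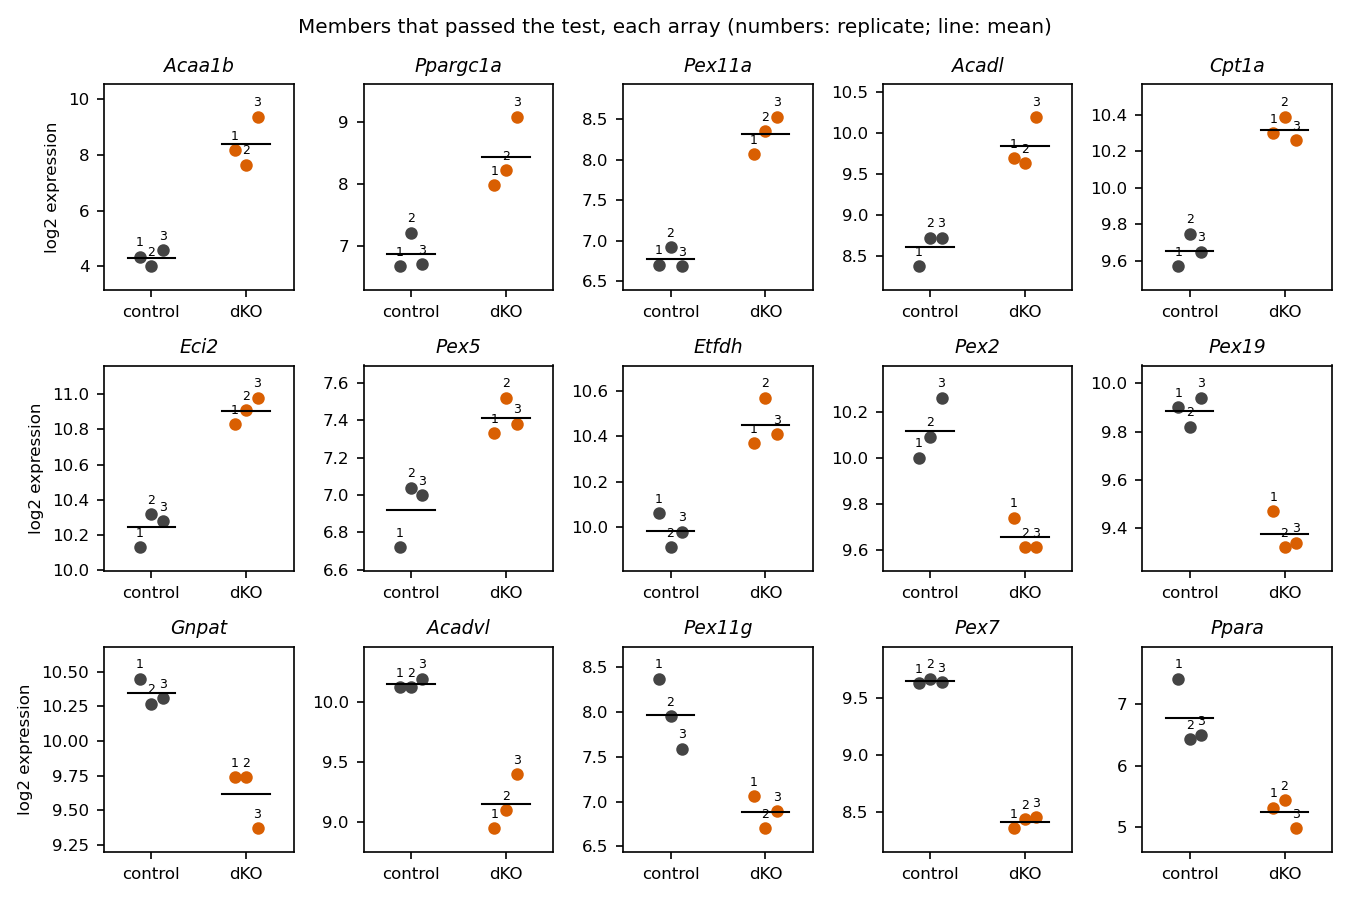
Log2 values on each array of the 15 members that passed the test (each panel has its own axis), with samples numbered by replicate and lines at the means of 3 arrays. In every panel the control and dKO points do not overlap, and dKO 3 stands well above the other dKO points for Acaa1b, Ppargc1a and Acadl.

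The regulators of oxidation moved in opposite directions. Ppargc1a, which encodes the coactivator PGC-1alpha of mitochondrial genes and fat oxidation, was at 6.67, 7.21 and 6.71 in control and at 7.98, 8.22 and 9.08 in dKO nerves. It rose by 1.56 (SE 0.29, adjusted p = 0.00670), or 2.95-fold, with no overlap, and all 5 of its probe sets passed with changes of 1.27 to 2.01. Ppara, a nuclear receptor that turns on many oxidation genes, was at 7.42, 6.43 and 6.5 in control and at 5.32, 5.44 and 4.98 in dKO nerves. It fell by 1.53 (log2 change -1.53, SE 0.27, adjusted p = 0.00536), or 2.89-fold, and all dKO values were below all control values. Only 1 of its 3 probe sets passed; the changes of the 3 ran from -1.53 to -0.12, and averaging them gave -0.80. The related receptors Ppard (0.36, SE 0.18, adjusted p = 0.195) and Pparg (0.06, SE 0.14, adjusted p = 0.812) did not pass.

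**Figure D3:**
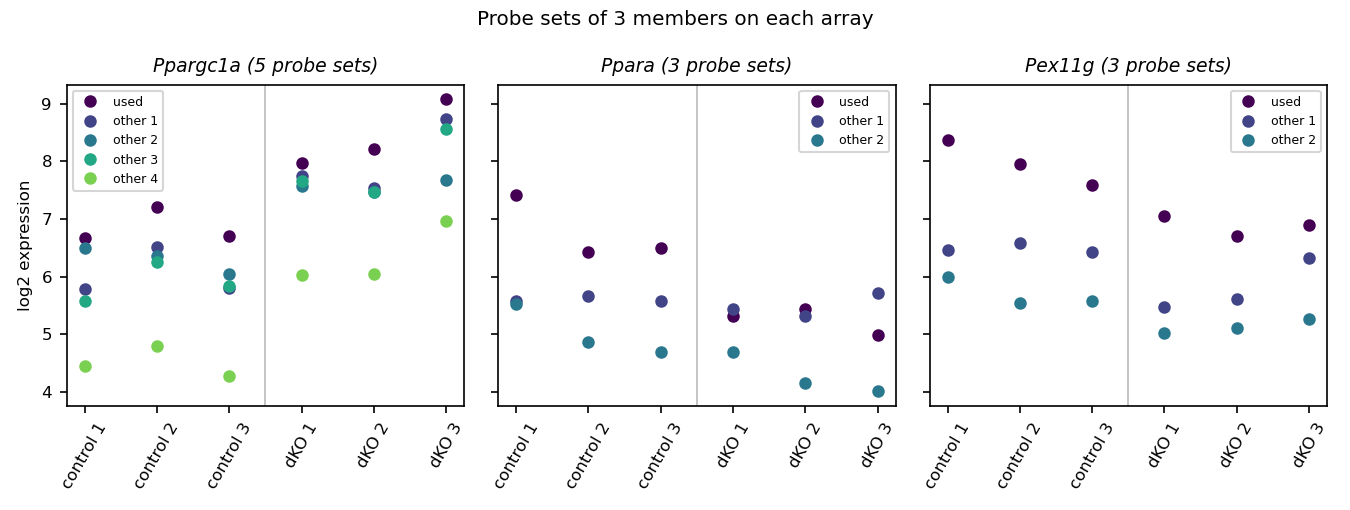
Log2 expression on each of the 6 arrays of every probe set above the limit for Ppargc1a, Ppara and Pex11g, with the probe set used for the gene named as such and each probe set a separate measurement. All 5 Ppargc1a probe sets are higher on the dKO arrays, whereas for Ppara and Pex11g the groups separate most on the probe set used.

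Among the 14 genes matched as Pex, 2 rose and 4 fell, where 12.6% of all genes tested rose and 9.38% fell. Pex11a, which drives the division of peroxisomes, was at 6.70, 6.92 and 6.68 in control and at 8.07, 8.35 and 8.53 in dKO nerves. It rose by 1.55 (SE 0.16, adjusted p = 0.000566), or 2.93-fold, and both probe sets passed. Pex11g, another member of that family, was at 8.37, 7.95 and 7.59 in control and at 7.06, 6.70 and 6.89 in dKO nerves. It fell by 1.09 (log2 change -1.09, SE 0.21, adjusted p = 0.00841), or 2.13-fold, with no overlap. Its 3 probe sets had changes of -1.09 to -0.57, of which 1 passed. Pex11a and Pex11g thus moved apart.

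Of the import receptors, Pex7 fell and Pex5 had a rise close to the threshold, and their difference was not tested. Pex7 brings in enzymes with an amino-terminal signal, among them Agps and the thiolases. It was at 9.63, 9.67 and 9.64 in control and at 8.36, 8.44 and 8.46 in dKO nerves, the tightest pair of groups among the members that changed 2-fold. It fell by 1.23 (log2 change -1.23, SE 0.13, adjusted p = 0.000520), or 2.34-fold. Pex5, the receptor for the common carboxy-terminal signal, was at 6.72, 7.04 and 7.0 in control and at 7.33, 7.52 and 7.38 in dKO nerves. It rose by 0.49 (SE 0.15, adjusted p = 0.0492). That call held under 1 of 12 other settings and was lost with any array left out (adjusted p 0.0703 to 0.149).

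Pex19, a chaperone for membrane proteins of the peroxisome, was at 9.90, 9.82 and 9.94 in control and at 9.47, 9.32 and 9.34 in dKO nerves. It fell by 0.51 (log2 change -0.51, SE 0.13, adjusted p = 0.0259), a call that was lost without each array but dKO 3 (adjusted p 0.0508 to 0.088). Pex2, a ubiquitin ligase that recycles import receptors, was at 10, 10.09 and 10.26 in control and at 9.74, 9.61 and 9.61 in dKO nerves. It fell by 0.47 (log2 change -0.47, SE 0.14, adjusted p = 0.0450), a call lost without any single array (adjusted p 0.0589 to 0.152). In both genes every dKO value was below every control value.

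The other 8 Pex genes did not pass. Pex6, Pex26, Pex13, Pex14 and Pex10, parts of receptor recycling, docking and ligase complexes, had changes of 0.38, 0.09, 0.11, 0.05 and -0.10 (SE 0.14 to 0.36). Pex3 and Pex16, which insert membrane proteins, had changes of -0.18 and -0.19. Of the 4 Pex6 probe sets above the limit, only the one used had a change above 0, and the lowest was -0.15. Another Pex13 probe set rose by 0.63 and passed. Pex5l, a neuronal gene that resembles Pex5 and is matched by its name, had a change of -0.33 (SE 0.28), and 1 of its 4 probe sets was lower by 0.94 and passed. With the probe sets averaged, Pex5l passed at a change of -0.67 (adjusted p = 0.0227).

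**Figure D4:**
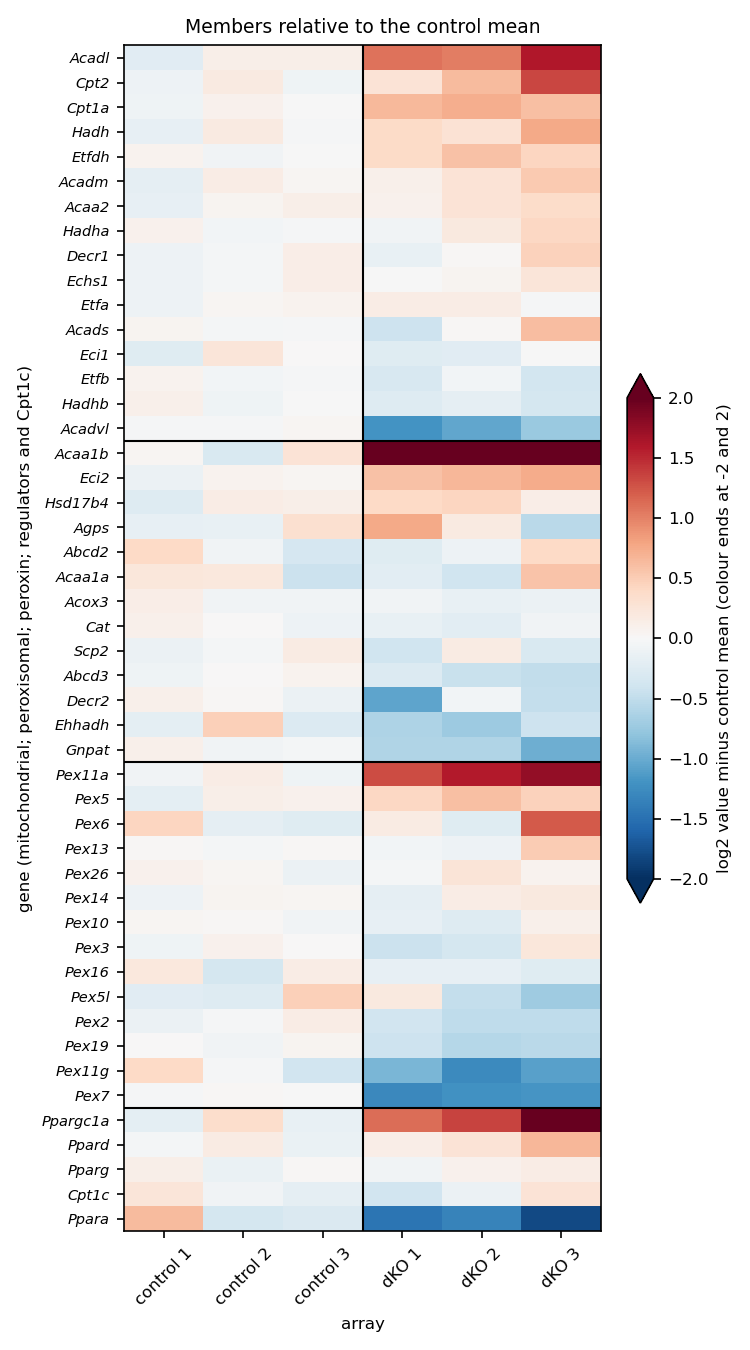
Deviation of each array from the control mean, on the log2 scale, for the 48 tested members in 4 blocks, each ordered by change (rows), over 3 control and 3 dKO arrays (columns). Within each of the blocks set off by lines (mitochondrial, peroxisomal, peroxin, regulators with Cpt1c) some genes are higher and others lower on the dKO arrays; the colours end at -2 and 2, and Acaa1b on all dKO arrays and Ppargc1a on dKO 3 lie past them.

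Mitochondrial and peroxisomal members were set side by side, where 22% of all genes tested passed. Of 16 mitochondrial genes 3 rose, 1 fell and 12 did not pass (25% called), with 12 changes above and 4 below 0. Of 13 peroxisomal enzymes and transporters 2 rose, 1 fell and 10 did not pass (23.1% called), with 5 above and 8 below 0. The 14 Pex genes, with Pex5l among them, are called peroxins here: 2 rose, 4 fell and 8 did not pass (42.9% called). Of those calls, the ones of Pex5, Pex19 and Pex2 did not hold under all settings. Median changes were 0.15 (-0.99 to 1.23) for mitochondrial members, -0.11 (-0.73 to 4.10) for peroxisomal ones and -0.14 (-1.23 to 1.55) for peroxins, beside 0.01 over all genes. No difference between these groups was tested. By array, the mitochondrial median deviation from the control mean was -0.10, 0.01 and 0.00 in control and 0.04, 0.18 and 0.42 in dKO nerves, highest in dKO 3. Without dKO 1 the mitochondrial median change was 0.31, and without dKO 3 it was 0.11. The peroxisomal median was -0.04 without control 1 and -0.17 without dKO 3. The peroxin median was -0.06 without dKO 1 or dKO 2 and -0.09 without control 1.

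Related members were compared within each array, which removes any offset shared by all genes of an array. With 3 against 3 arrays an exact permutation test cannot go below a p of 0.1, so none of these can pass 0.05. Of 8 pairs, 6 had differences that did not overlap between the groups, each with a two-sided exact permutation p of 0.1 (adjusted over the 8 pairs, 0.133). Of single genes 40.9% did not overlap, and the share among other pairs of genes was not computed. Acaa1b minus Acaa1a ran from -5.99 to -4.77 in control and from -1.74 to -0.98 in dKO nerves, a shift of 4.10 (SE 0.43). Gnpat minus Agps shifted by -0.86 (SE 0.33), Eci1 minus Eci2 by -0.82 (SE 0.09), Ehhadh minus Hsd17b4 by -0.90 (SE 0.28), Cpt1a minus Cpt1c by 0.74 (SE 0.26) and Hadha minus Hadhb by 0.45 (SE 0.17). Of these shifts, that of Eci1 and Eci2 had the smallest SE. Each pair used 1 probe set per gene. The 3 Hadhb probe sets had changes of -0.57 to 0.04, and the pair was not compared with the others. Abcd2 minus Abcd3 shifted by 0.43 (SE 0.36, p = 0.4 by the same exact test) and Decr1 minus Decr2 by 0.64 (SE 0.31, exact p = 0.2), with overlap in each.

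Genes around these pathways, taken from lists of general knowledge, numbered 61 tested, of which 19 passed (31.1%, against 22% of all genes tested), 7 higher (12.6% of all genes) and 12 lower (9.38% of all genes), with a median change of 0.00. On the list of other peroxisomal enzymes and membrane proteins 2 of 24 rose and 7 fell, and their median was -0.28. Crot, which moves medium chains from peroxisomes to carnitine, was at 8.40, 8.65 and 8.68 in control and at 9.81, 9.84 and 9.88 in dKO nerves, and rose by 1.27 (SE 0.14, adjusted p = 0.000664), though by 0.52 with its probe sets averaged. Pxmp2, a channel of the peroxisomal membrane, rose by 1.31 (SE 0.15, adjusted p = 0.000836), or 2.47-fold. Phyh, which starts the breakdown of phytanic acid, is imported by Pex7, and its loss causes Refsum disease with neuropathy. It was at 10.03, 10.34 and 10.24 in control and at 9.28, 9.03 and 9.51 in dKO nerves, and fell by 0.93 (log2 change -0.93, SE 0.17, adjusted p = 0.00609). Nudt12 (-1.06, SE 0.23, adjusted p = 0.0144), a diphosphatase, and Mpv17 (-1.0, SE 0.25, adjusted p = 0.0219) fell too; the first lost its call without control 2 (adjusted p = 0.0536), and the latter without each array but control 1 and dKO 3 (adjusted p 0.0654 to 0.0778). Dhrs4, Ech1, Nudt7 and Abcd4 also fell. Ech1 and Nudt7 lost their calls without each array but dKO 3 (adjusted p 0.0577 to 0.114 and 0.0542 to 0.0947), and Abcd4 without control 2, control 3 or dKO 1 (adjusted p 0.0591 to 0.0799). Mpv17 and Abcd4 are on that list but are known as proteins of the mitochondrial inner membrane and of the lysosome, so 5 of the 7 that fell encode peroxisomal proteins, a split made after their values were seen.

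Of 6 tested partners and cofactors of the PPAR receptors 2 rose and 1 fell, beside 12.6% and 9.38% of all genes tested. Nrip1, a corepressor of oxidation genes, rose by 1.74 (SE 0.14, adjusted p = 0.000205), or 3.34-fold. Ppargc1b, the relative of Ppargc1a, rose by 0.75 (SE 0.15, adjusted p = 0.00880), and Rxrg, a partner of the PPAR receptors, fell by 1.43 (log2 change -1.43, SE 0.16, adjusted p = 0.000739). The other 3 did not pass: Rxra (0.40, adjusted p = 0.0772), Rxrb (-0.45, adjusted p = 0.107) and Med1 (-0.51, adjusted p = 0.264). Of 8 PPAR target genes outside beta-oxidation, Cd36, a fatty acid receptor that macrophages also carry, rose by 0.87 (SE 0.24, adjusted p = 0.0360), and Ucp3 fell by 0.53 (log2 change -0.53, SE 0.15, adjusted p = 0.0388). Cd36 lost its call without each array but dKO 1 (adjusted p 0.0538 to 0.109), and Ucp3 without each but control 1 (adjusted p 0.0764 to 0.132). The other 6 did not pass: Lpl (1.12, adjusted p = 0.0927), Plin2 (0.76, adjusted p = 0.0538), Pdk4 (0.62, adjusted p = 0.0866), Angptl4 (0.60, adjusted p = 0.116), Fabp3 (0.03) and Fgf21 (-0.07). Pdk4 passed without control 3 (0.88, adjusted p = 0.01), and Plin2 under 4 other settings (adjusted p 0.0373 to 0.0449).

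Among genes of fatty acid uptake and activation 1 of 12 rose and 2 fell, against 12.6% and 9.38% of all genes tested. Acsbg1, an acyl-CoA synthetase for very long chains, rose by 1.97 (SE 0.27, adjusted p = 0.00162), or 3.91-fold. Acsl3, another synthetase, fell by 0.84 (log2 change -0.84, SE 0.15, adjusted p = 0.00477), and Slc27a1, a fatty acid transporter, by 0.47 (log2 change -0.47, adjusted p = 0.0367), the latter call lost with any array left out (adjusted p 0.0614 to 0.11). In other mitochondrial enzymes Ivd, of leucine breakdown, rose by 0.84 (SE 0.16, adjusted p = 0.00723), and Bdh1, of ketone bodies, fell by 0.46 (log2 change -0.46, adjusted p = 0.0360), a call lost with any array left out (adjusted p 0.0563 to 0.109).

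**Figure D5:**
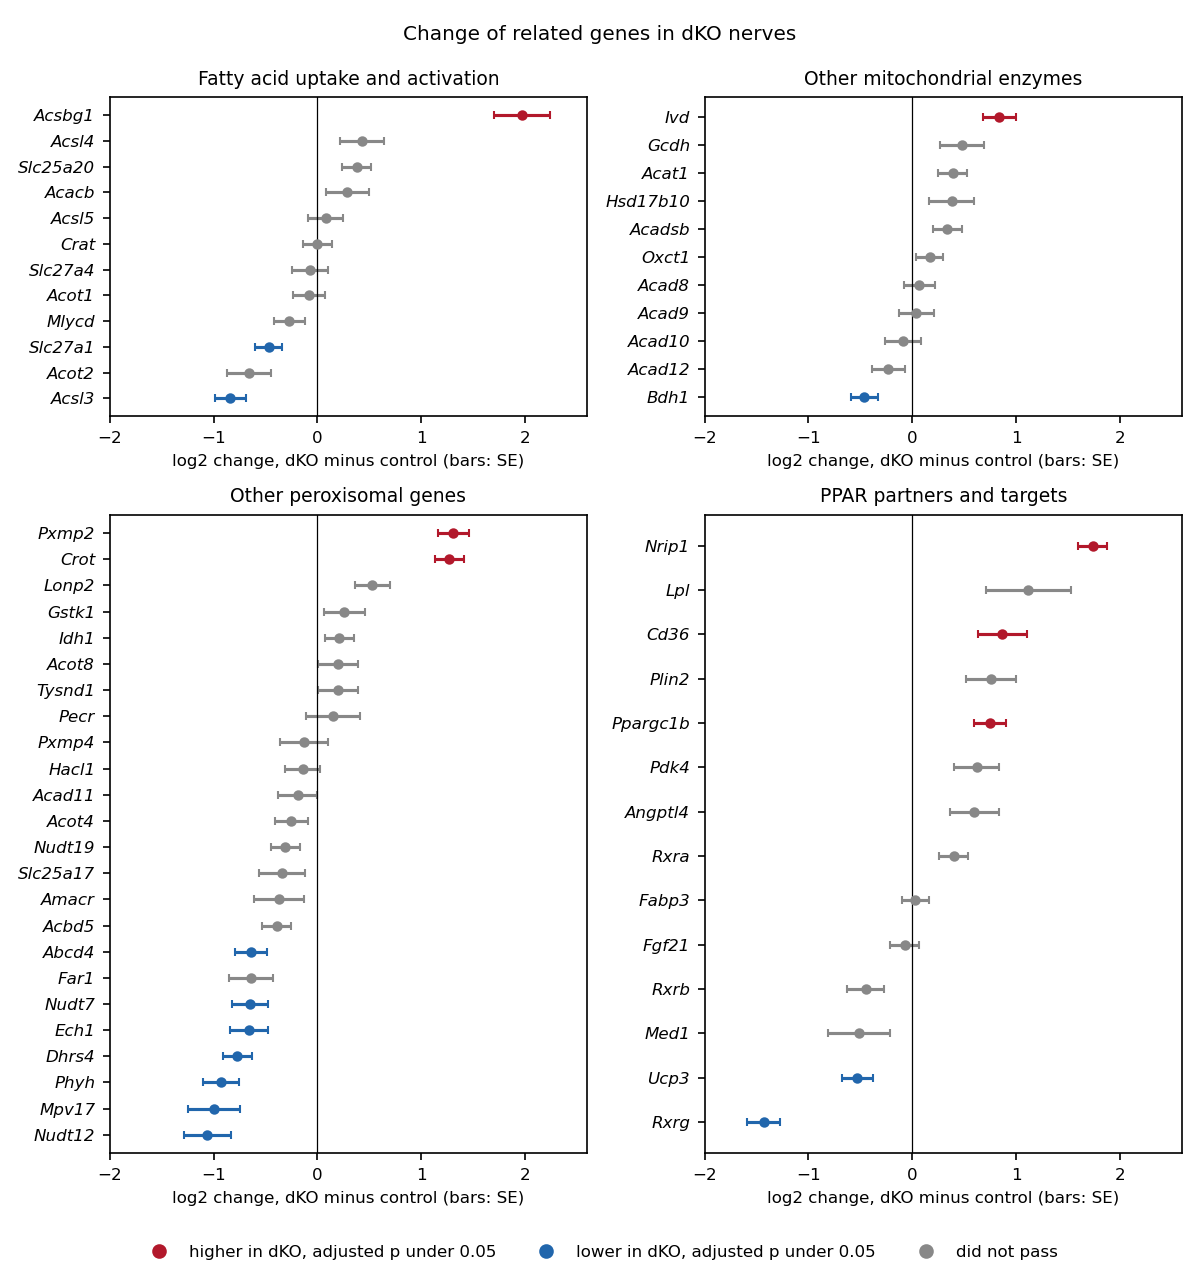
Log2 change in dKO against control, with bars of 1 SE, of genes of related lists that were not members, grouped by list. Coloured points passed the test at an adjusted p under 0.05, 7 above and 12 below 0.

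Markers of other cells rich in oxidation genes, or found in nerve, were read on the same arrays. Of adipocyte markers, Adipoq and Lep were under 4 on all arrays, and the sum of 6 measured markers was 110 to 141 in control and 121 to 126 in dKO nerves. Brown adipocyte genes summed to 131 to 156 in control and 107 to 132 in dKO, with Cidea and Elovl3 under 4 on all arrays. Neither list had a call, where 22% of all genes tested did. Of 7 skeletal muscle markers 1 rose, and the sum was 241 to 330 in control and 289 to 376 in dKO nerves. Of 7 macrophage markers Aif1 and C1qa rose. Csf1r, the brightest, did not pass (0.76, limma adjusted p = 0.15), nor did Cd68, Adgre1, Cd163 and Mrc1. The sum of the 7 was 1408 to 1954 in control, and 2138 and 2156 in dKO 1 and dKO 2. It was 4275 in dKO 3, the array with the highest Acaa1b, Ppargc1a, Cpt2 and Acadl. Endothelial markers summed to 805 to 1086 in control and 1138 to 1641 in dKO nerves, with 0 of 5 called, and 1 of 4 neuron markers (Snap25) rose. Whether the changes in oxidation genes come from these cells was not tested.

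Promoter motifs were counted in the 47 RefSeq windows of 41 members, beside all 32851 windows of the same length. The latter were not limited to the genes tested on these arrays. Whether the shares in members differ from those in other tested genes was therefore not measured. Members with no window were Abcd2, Acaa2, Decr1, Hsd17b4, Pex19, Pex2 and Pex5l. A GC box (GGGCGG) was in 35 of 47 member windows (74.5%) and in 35.7% of all. The CRE half-site (TGACG) was in 36.2% of member windows and 20.8% of all, and CCAAT in 40.4% and 37.4%. The PPAR-RXR element in its strict form, a direct repeat of AGGTCA with any 1 base between, was in 0 member windows and in 0.0396% of all. The ERR element TNAAGGTCA was in 0 member windows and 1.28% of all, and the half-site AGGTCA alone, which overlaps both, in 21.3% and 16.3%. Both strands were read. CG dinucleotides per window had a median of 7 over all windows and 17 over members; it was 15.5 for those that rose, 19 for those that fell and 17 for those that did not pass. Acaa1b, with 4, had the fewest among the windows of members that rose.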

How the data were processed

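Each deposited value is the log2 signal of a probe set, between 1.66 and 14.94. The submitters' processing notes name GCOS 1.2 and GCRMA; the log2 scale was inferred from the values. Each array had a median of 5.77, so a shift shared by all genes could not be detected, and GCRMA leaves low values with little information. A single symbol was given for 34958 of 45101 probe sets and several for 932, and 9211 went unnamed. The probe set with the highest mean over 6 arrays stood for each gene, and the 14550 of 18194 genes that reached 4 on 3 or more arrays were tested. Groups were taken from the sample titles.

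The comparison was fitted with limma 3.58.1 (lmFit, eBayes) in R 4.3.3, with no covariates and two-sided p-values adjusted by Benjamini-Hochberg over all genes tested, and for single probe sets over every probe set measured. The fit was tested on simulated data. Cell type sums are of linear values. Pairs were compared by exact permutation. Every tested member could be named; array values were given for called members of at least 2-fold change, for Acaa1b and for called members of a pair. Values by array of Acaa1a, Acox2, Acadvl, Etfdh, Pex5, Pex19, Pex2, Cpt2, Ehhadh, Agps, Crot and Phyh were added after their values were seen. From each other list, the 3 largest called rises and 3 largest called falls were named; Dhrs4, Ech1, Nudt7, Abcd4 and the genes of the PPAR lists that did not pass were added after their values were seen. The members and lists were chosen with earlier results of these data known. Alternatives were another low-value limit or none, averaged probe sets, an intensity trend, centred arrays, a replicate block and each array left out.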

Additional observations from a re-analysis of the deposited data

How the results depend on the processing

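The count of called members was 11 to 16 under the 12 settings, against 15, with 6 to 8 higher and 5 to 9 lower. Among the 48 tested members and 61 tested related genes, no call, in the reported fit or under a setting, came with opposite signs in that fit and that setting. With the replicate number as a block, 11 members were called (6 higher, 5 lower) and 2557 of all genes, against 3198. Same-numbered samples had correlations of deviations of 0.04, -0.12 and -0.23, so the numbers were not taken to pair them. With an array left out, 2178 to 2916 genes and 11 to 12 members were called. The mitochondrial median ran from 0.11 to 0.31 with an array left out, the peroxisomal one from -0.17 to -0.04 and the peroxin one from -0.16 to -0.06. With each array centred on its median over tested genes, the peroxisomal median was -0.18, the median of all genes was -0.07, and 49.4% of called genes were higher, against 57.3%; Ehhadh and Abcd3 were then called lower, and Cpt2, Hadh, Abcd3 and Pex5l passed under other settings given beside their values. The cause of these moves was not tested. The number of arrays limits the precision, with a median SE of 0.17.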
